A study of Mus musculus with 64 samples.

Results

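Short-chain fatty acids (SCFAs) are made by gut bacteria from fibre, and acetate, propionate and butyrate are taken up by the colon epithelium and sensed by receptors on its cells. The 6 genes described here were chosen by name: the transporters Slc5a8 and Slc16a1, the receptors Ffar2, Ffar3 and Hcar2, and the enzyme Acss2, out of 19503 genes on the array. All 6 were represented, each by 1 probeset. Slc5a8 couples SCFA entry at the luminal membrane to sodium, and Slc16a1 carries SCFAs, lactate and pyruvate together with a proton. Ffar2 and Ffar3 are G protein-coupled receptors for SCFAs known from enteroendocrine cells, the hormone-secreting cells of the gut epithelium. Hcar2 responds to butyrate, niacin and the ketone body beta-hydroxybutyrate, and Acss2 turns acetate into acetyl-CoA in the cytosol and nucleus.

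The transcriptome of the proximal colon was measured on 64 Clariom S arrays, 32 from mice on a high-fat diet (HFD) and 32 from mice on a chow diet (CD). The panel held 30 BXD strains, inbred lines that each carry a fixed mix of C57BL/6J and DBA/2J alleles, and the 2 parental strains. All mice were males of 29 weeks, refed for 4 h on their own diet, and the HFD mice received CD until 8 weeks and HFD afterwards. Fat, carbohydrate and protein gave 60.3%, 21.4% and 18.3% of the calories of HFD, and 18%, 58% and 24% of those of CD.

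Each array held RNA pooled from about 5 mice of 1 strain and 1 diet, so a p value reflects how strains, not individual mice, differ. A bulk array cannot tell fewer cells of a type apart from less RNA per cell. Levels are log2 expression values after normalisation, on which 1 unit is a doubling, and the probes of different genes are not on a common scale. The mean of 9 colonocyte markers ranged between 15.90 and 16.71 on HFD and between 15.95 and 16.87 on CD. Defa24, a Paneth cell gene of the small intestine, stood at 15.77 to 19.57 in BXD49, BXD69 and BXD39 on HFD and in BXD48a on CD, and at 9.76 or less in the other 60 arrays. The strain labels of C57BL/6J, DBA/2J, BXD87, BXD89 and BXD90 are in doubt, from how alike the arrays were at strain-dependent genes in an earlier look at these data. Over all genes the deviations of the DBA/2J CD array from its diet mean correlated at 0.02 with those of the DBA/2J HFD array and at 0.50 with those of the C57BL/6J HFD array, and those of the BXD89 and BXD90 arrays at -0.02 and -0.03 with their own strain. By this measure the CD arrays of BXD87 (0.24) and C57BL/6J (0.31) were closest to the HFD array of their own strain. The reverse did not hold: the BXD87 HFD array was closest to the BXD12 CD array (0.29), and the C57BL/6J HFD array to the DBA/2J CD array (0.50). The pairs of BXD51 (-0.04), BXD62 (0.00), BXD6 (0.03) and BXD34 (0.05), whose labels were not in doubt, also had low values. No scan date or other batch was given in the sources used here.

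The promoters of Slc16a1, Slc5a8 and Ffar2 are shown because Slc16a1 was the gene that passed the blocked diet test, Ffar2 the one that kept its strain order, and Slc5a8 the other SCFA carrier, with a Klf factor gene among the genes most like it. They are the 250 bases before each gene's start in RefSeq (mouse GRCm38.p6, the C57BL/6J reference), chr3:104638414-104638663 on the plus strand for Slc16a1, chr10:88885742-88885991 on the plus strand for Slc5a8, and chr7:30823776-30824025 on the minus strand for Ffar2, the most upstream of 4 starts. RefSeq held promoter sequence for 5 of the 6 genes in the table used. Capitals mark matches, on either strand, to an E-box (CACGTG), a GC box (GGGCGG) and a KLF-type box (CACACCC); these motifs share no overlapping matches here.
Slc16a1: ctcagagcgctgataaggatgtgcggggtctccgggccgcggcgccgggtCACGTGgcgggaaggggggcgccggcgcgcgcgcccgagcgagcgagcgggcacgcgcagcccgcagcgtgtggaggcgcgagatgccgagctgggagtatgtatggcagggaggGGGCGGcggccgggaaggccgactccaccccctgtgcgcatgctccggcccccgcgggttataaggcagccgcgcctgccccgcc
Slc5a8: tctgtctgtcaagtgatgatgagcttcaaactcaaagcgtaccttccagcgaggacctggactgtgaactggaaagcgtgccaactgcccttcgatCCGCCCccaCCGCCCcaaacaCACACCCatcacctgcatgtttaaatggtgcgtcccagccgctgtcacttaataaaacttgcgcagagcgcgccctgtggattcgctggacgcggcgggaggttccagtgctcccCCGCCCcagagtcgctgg
Ffar2: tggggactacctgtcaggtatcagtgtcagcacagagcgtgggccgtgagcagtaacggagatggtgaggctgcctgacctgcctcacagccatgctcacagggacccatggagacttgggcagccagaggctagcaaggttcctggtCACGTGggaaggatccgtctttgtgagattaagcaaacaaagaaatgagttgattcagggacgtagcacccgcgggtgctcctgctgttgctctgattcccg

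The Slc16a1 window held 1 E-box at -200 and 1 GC box at -85, counted from the first base of the match to the gene's start. The Slc5a8 window held GC boxes at -154, -145 and -18 and a KLF-type box at -133, and the Ffar2 window 1 E-box at -102. Over 32851 windows of this length, 6.02% held an E-box, 32.7% a GC box and 6.93% a KLF-type box. A match describes the letters and does not show that a factor binds there.

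None of the 6 genes differed between diets at an adjusted p under 0.05 when strain was left out of the model, and Slc16a1 fell when the arrays of a strain were treated as a pair. In limma with diet alone, 2.18% of all genes passed, and 0 of the 6 did, with 1 of them at an unadjusted p under 0.05. With strain as a block 3.52% of all genes passed, 2.13% as lower and 1.39% as higher on HFD, and 1 of the 6 passed, as lower on HFD. The median change of the 6 was -0.19, beside 0.00 over all genes. That median lies between the changes of Ffar3 (-0.205) and Hcar2 (-0.181), whose values cannot be told apart from background (below). The plot of levels by diet shows that the strains of the 2 diets overlapped for every one of them.

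**Figure D1:**
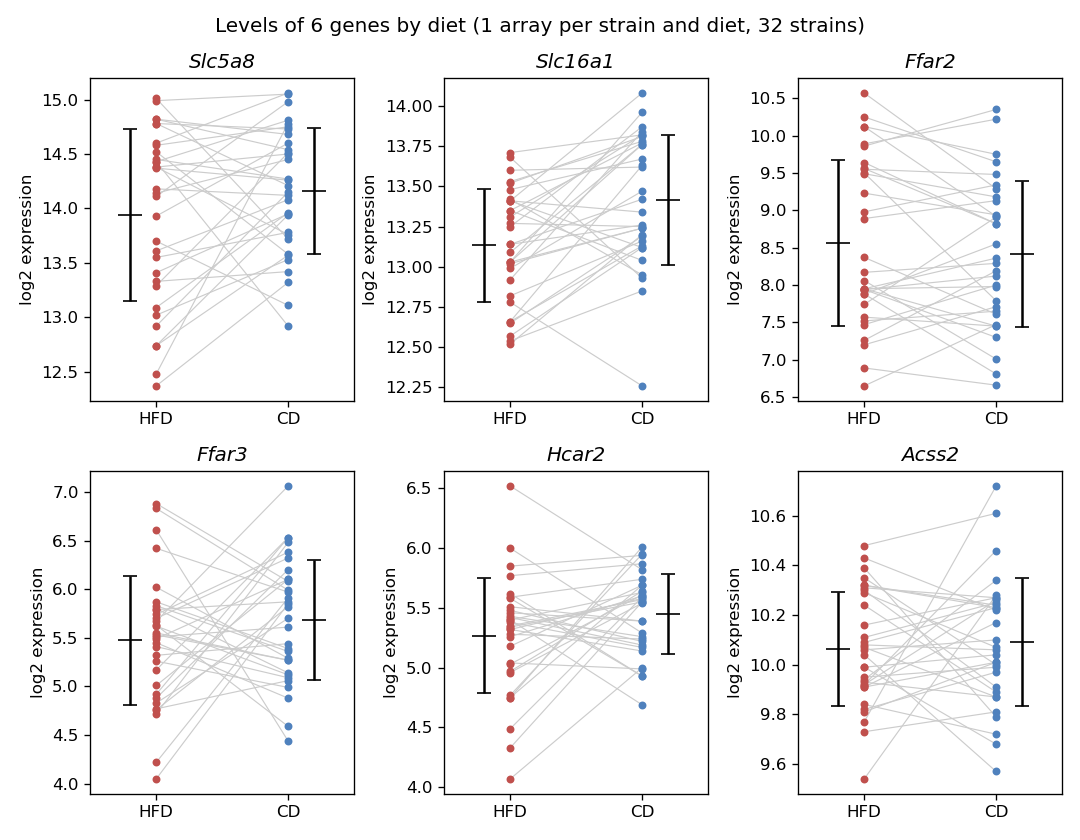
Log2 expression of the 6 genes in 32 strains on HFD (red, left) and CD (blue, right). Each point is 1 array, lines join the arrays of a strain, and black bars give mean and SD. Slc16a1 was lower on HFD in 25 of 32 strains, while Acss2 lines ran in both directions (15 higher, 17 lower).

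Slc16a1 encodes the main monocarboxylate transporter of the colon epithelium. On HFD its level ranged from 12.52 in BXD49 to 13.71 in BXD32 with a median of 13.14, and on CD from 12.26 in BXD81 to 14.08 in BXD11 with a median of 13.38. The highest CD strains were above every HFD array, whereas the lowest value of all belonged to a CD array. Mean levels were 13.13 ± 0.35 on HFD and 13.42 ± 0.40 on CD (SD, n = 32 each). The log2 difference of HFD minus CD was -0.28 (standard error 0.094, 95% confidence interval -0.471 to -0.094, adjusted p = 0.102 in limma). With strain as a block it was the same with a standard error of 0.079 and an interval of -0.441 to -0.123 (adjusted p = 0.0336). Slc16a1 was lower on HFD in 25 strains and higher in 7, with changes from -0.98 in BXD34 to 0.74 in BXD90. Without the block it passed in 1 of 32 fits that left out a strain (adjusted p from 0.0493 to 0.18). That was the fit without BXD90, the strain with the largest rise. Without the 5 strains with labels in doubt, BXD90 among them, the blocked difference was -0.34 (adjusted p = 0.0058). Those strains were set aside because of strain-dependent genes in these same arrays, so the smaller p is not independent evidence.

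Slc5a8 encodes the sodium-coupled carrier that takes up butyrate at the luminal side. On HFD the level ranged from 12.37 in BXD11 to 15.01 in BXD90 (median 14.16), and on CD from 12.92 in BXD89 to 15.06 in BXD48a (median 14.18). The HFD arrays spread further down than the CD arrays, while their upper ends lay close together. Levels averaged 13.94 ± 0.79 on HFD and 14.16 ± 0.58 on CD (SD, n = 32 each), a log2 difference of -0.22 with a standard error of 0.166 and a 95% confidence interval of -0.554 to 0.107 (adjusted p = 0.604 in limma). Of the strains, 12 were higher and 20 lower on HFD. The extreme changes, -2.30 in DBA/2J, 1.5 in BXD89 and 1.29 in BXD90, all belonged to strains whose labels are in doubt.

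Bsg, or basigin, is the chaperone that brings Slc16a1 and Slc16a3 to the cell surface. Among the 9 other transport genes listed it was the 1 that passed, as a fall. Its level ranged from 16.89 to 17.82 on HFD (median 17.34) and from 16.97 to 18.89 on CD (median 17.66), so the CD arrays reached higher while the lower ends lay close together. The log2 difference was -0.37 (standard error 0.087, adjusted p = 0.0071 in limma), with 26 of 32 strains lower on HFD. Slc16a1 and Bsg levels showed little relation across strains, with an r of 0.17 on HFD, -0.05 on CD and 0.10 between their changes (n = 32). The lactate exporter Slc16a3 had a difference of 0.23 (adjusted p = 0.288), the monocarboxylate transporter Slc16a5 one of -0.34 (0.177) and the chloride and bicarbonate exchanger Slc26a3 one of -0.39 (0.314), none past the threshold. Transport without the 2 SCFA carriers had a median change of -0.05 over 9 genes.

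Ffar2 was the gene of the 6 that varied most between strains, and its mean hardly moved with diet. The level ranged from 6.65 in BXD90 to 10.57 in BXD12 on HFD with a median of 8.12, and from 6.66 in BXD67 to 10.35 in BXD6 on CD with a median of 8.33. High and low strains thus occurred on both diets over nearly the same range. Means were 8.56 ± 1.11 on HFD and 8.41 ± 0.98 on CD (SD, n = 32 each), with a log2 difference of 0.15, a standard error of 0.248 and a 95% confidence interval of -0.342 to 0.648 (adjusted p = 0.861 in limma). With strain as a block the standard error was 0.118 and the interval -0.085 to 0.391 (adjusted p = 0.564). It was higher on HFD in 17 strains and lower in 15, from -1.16 in BXD51 to 1.71 in DBA/2J. Both of those strains had arrays with little likeness to each other over all genes.

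Ffar3, the neighbour of Ffar2 on chromosome 7, and Hcar2 gave low values. Ffar3 ranged from 4.05 in BXD6 to 6.88 in BXD45 on HFD (median 5.52) and from 4.44 in BXD34 to 7.06 in BXD66 on CD (median 5.76), with 15 strains higher and 17 lower on HFD. Its difference was -0.20 (standard error 0.155, 95% confidence interval -0.513 to 0.104, adjusted p = 0.614 in limma). Hcar2 ranged from 4.07 in BXD55 to 6.52 in BXD87 on HFD (median 5.35) and from 4.69 in BXD11 to 6.01 in BXD6 on CD (median 5.55). The diets overlapped for both receptors, and for Hcar2 the HFD arrays lay on both sides of the whole CD range. The Hcar2 difference was -0.18 (standard error 0.103, 95% confidence interval -0.386 to 0.025, adjusted p = 0.456 in limma), with 14 strains higher and 18 lower.

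To see where these values lie relative to unspecific signal, 1426 vomeronasal, trace amine and olfactory receptor genes were taken as a background. Such receptors serve the nose and are little used in the colon. Their mean levels had a median of 4.96, with 95% of them under 6.46. Ffar3 averaged 5.58 over 64 arrays, and 23.4% of the background genes had a higher mean, while Hcar2 averaged 5.36 and 32% were higher. For Ffar2 0.0701% were higher, which is 1 gene, and for Slc5a8, Slc16a1 and Acss2 0%. Because probes differ in affinity this does not order the genes, but the values of Ffar3 and Hcar2 cannot be told apart from background here.

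Ffar4 belongs to the same receptor group but binds long-chain fatty acids, and it fell on HFD. Its level ranged from 8.59 to 11.67 on HFD (median 10.01) and from 9.40 to 12.28 on CD (median 10.89), overlapping but shifted, with BXD87 highest on both diets. The log2 difference was -0.73 (standard error 0.202, adjusted p = 0.0339 in limma), lower on HFD in 27 of 32 strains. It was 1 of 3 receptors beyond the SCFA receptors on the array, and the lactate receptor Hcar1 (-0.13, adjusted p = 0.651) and the long-chain fatty acid receptor Ffar1 (0.04, 0.872) did not pass. Without BXD49 on HFD and BXD81 on CD, arrays that stand apart, the call of Ffar4 was lost (adjusted p = 0.0548). That fit had diet alone, and with strain as a block over all arrays Ffar4 passed (standard error 0.111, adjusted p = 8.41e-05 in limma).

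Acss2 supplies acetyl-CoA for lipid synthesis and histone acetylation. On HFD its level ranged from 9.54 in BXD49 to 10.48 in BXD6 (median 10.05), and on CD from 9.57 in BXD89 to 10.72 in BXD48a (median 10.06). The lowest HFD array and the highest CD array were both rich in Defa24. Means were 10.06 ± 0.23 on HFD and 10.09 ± 0.26 on CD (SD, n = 32 each), and the difference of -0.03 had the narrowest confidence interval of the 6, -0.159 to 0.103 (adjusted p = 0.909 in limma). It was higher on HFD in 15 strains and lower in 17, with changes from -0.95 in BXD48a to 0.60 in BXD32.

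The enzymes that work beside Acss2 showed no call. Of 13 further genes for activation and butyrate oxidation, limma called 0, and 1 had an unadjusted p below 0.05, the mitochondrial acetyl-CoA synthetase Acss1 (-0.23, adjusted p = 0.176). The thiolases Acaa2 (0.17, adjusted p = 0.416) and Acat1 (0.13, 0.496) had positive differences that missed the threshold. For 6 genes of propionate use, 0 passed, and 0 at an unadjusted p under 0.05. Mmaa and Mmab, which handle vitamin B12, and the epimerase Mcee had the smallest p values of that list (-0.08, 0.05 and -0.13). Of 3 ketone body genes 0 passed, with the beta-hydroxybutyrate dehydrogenase Bdh1 at -0.23 (adjusted p = 0.258) and 1 gene at an unadjusted p under 0.05. Oxct1, which uses ketone bodies, had a difference of 0.07 and Aacs, which makes acetoacetyl-CoA in the cytosol, one of 0.00.

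Acss2 is a target of the SREBP factors, which drive sterol and fatty acid synthesis, so 14 other SREBP pathway genes were followed. Here 2 fell, 0 rose and 12 did not pass, with a median change of 0.04. Scd1, the desaturase that makes oleate, ranged from 9.04 to 10.90 on HFD and from 9.26 to 11.61 on CD and differed by -0.49 (standard error 0.134, adjusted p = 0.0358 in limma). Me1, which makes NADPH for lipid synthesis, ranged from 6.06 to 8.93 on HFD and from 6.83 to 8.84 on CD and differed by -0.49 (standard error 0.141, adjusted p = 0.0431). Both calls belong to fatty acid synthesis. Insig1, which holds back SREBP processing, had a difference of 0.46 (adjusted p = 0.11) and rose when strain was a block (adjusted p = 0.0173). Without BXD49 on HFD and BXD81 on CD, Scd1 (adjusted p = 0.0508) and Me1 (0.0624) no longer passed with diet alone. With strain as a block over all arrays both passed (adjusted p = 0.0157 for Scd1 and 0.00521 for Me1 in limma). Over all 54 genes of the 6 role lists, 4 fell (Bsg, Ffar4, Scd1 and Me1), 0 rose and 50 did not pass, where over all genes 1.44% fell and 0.743% rose. The figure of diet differences shows Ffar4 farthest from 0 and the Acss2 interval centred near it.

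**Figure D2:**
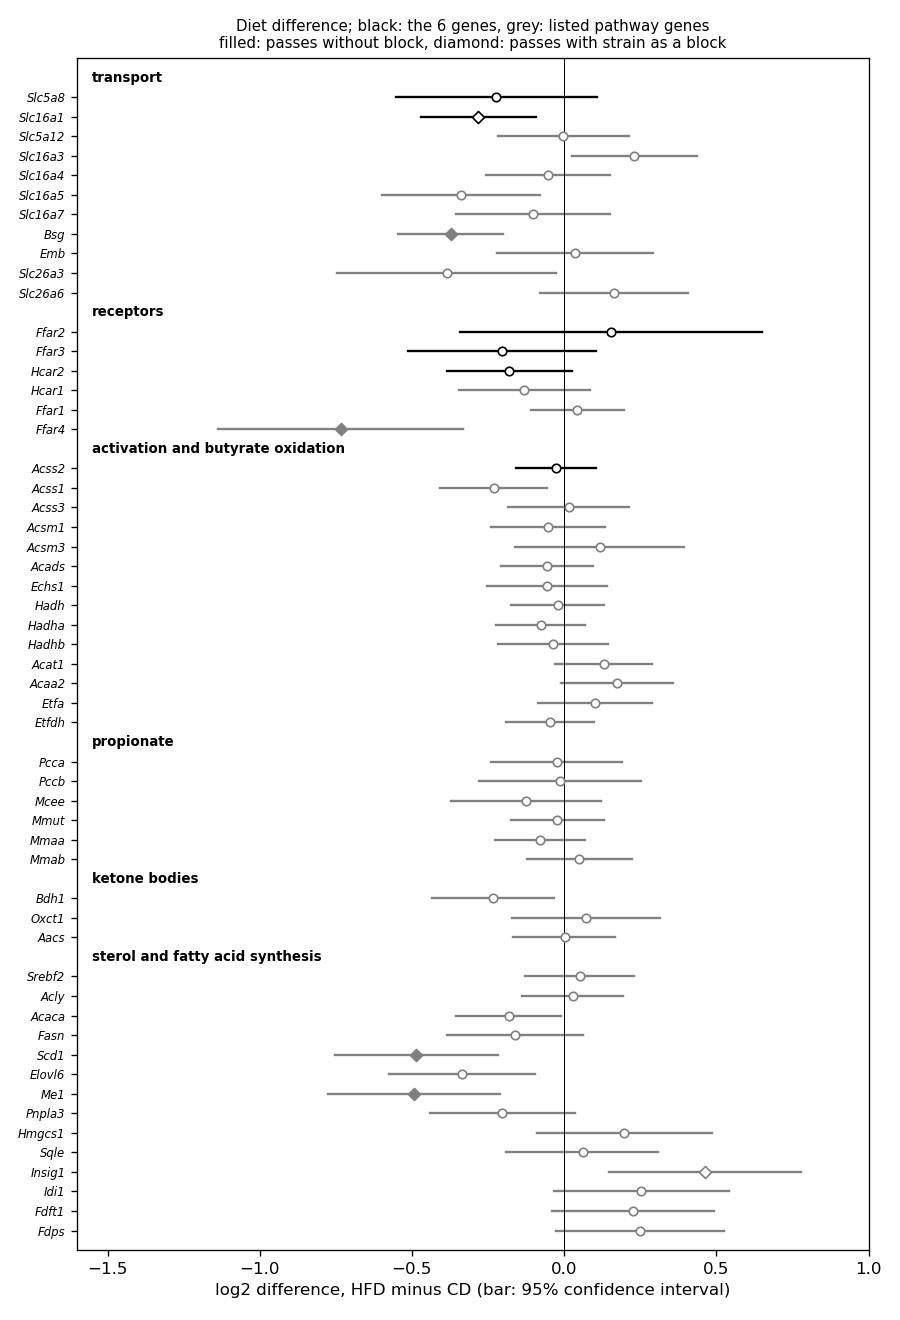
Log2 difference of HFD minus CD (x axis) with its 95% confidence interval for the 6 genes (black) and the other listed pathway genes (grey), by role. Filled symbols passed an adjusted p of 0.05 with diet alone and diamonds passed with strain as a block. Bsg, Ffar4, Scd1 and Me1 are filled diamonds, and Slc16a1 and Insig1 are open diamonds.

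Because every strain was measured on both diets, the strain's CD level could be set against its HFD level. Ffar2 kept its strain order across diets, with a Pearson r of 0.78 and a Spearman rho of 0.73 over 32 strains (permutation p = 1e-05 for each, the smallest that 100000 resamples can give, adjusted over 6 genes 6e-05). Without the 2 strains farthest from the CD median r was 0.76. Of all genes, 0.174% had a higher r, and the median over all genes was 0.14. In 7 strains Ffar2 was above 9 on both diets, among them BXD6 (9.86 on HFD, 10.35 on CD), BXD62 (9.89 on HFD, 10.22 on CD) and BXD75 (10.25 on HFD, 9.65 on CD). In 10 strains it was under 8 on both diets, among them BXD67 (6.89 on HFD, 6.66 on CD) and BXD73 (7.57 on HFD, 7.45 on CD). The parental arrays did not give a stable order: the DBA/2J arrays stood at 9.5 on HFD and 7.79 on CD and the C57BL/6J arrays at 7.88 on HFD and 8.55 on CD.

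For Slc5a8 r was 0.38 and rho 0.41 (permutation p = 0.0347 and 0.022, adjusted 0.083 and 0.0661), and for Slc16a1 0.36 and 0.31 (0.0415 and 0.0869, adjusted 0.083 and 0.174). Neither passed over all 32 strains. Without the 5 strains whose labels are in doubt, Slc5a8 had an r of 0.70 (adjusted p = 0.00012) and Slc16a1 one of 0.48 (0.0219), against 0.83 for Ffar2. Those strains were set aside because of strain-dependent genes in these same arrays, so the higher r is not independent evidence. Acss2 (0.07, adjusted p = 0.86), Hcar2 (0.00, 0.982) and Ffar3 (-0.17, 0.515) showed no repeatable strain order. For the background genes the median r was 0.08 and 95% had an r under 0.41. Whether r differed between the 6 genes was not tested.

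**Figure D3:**
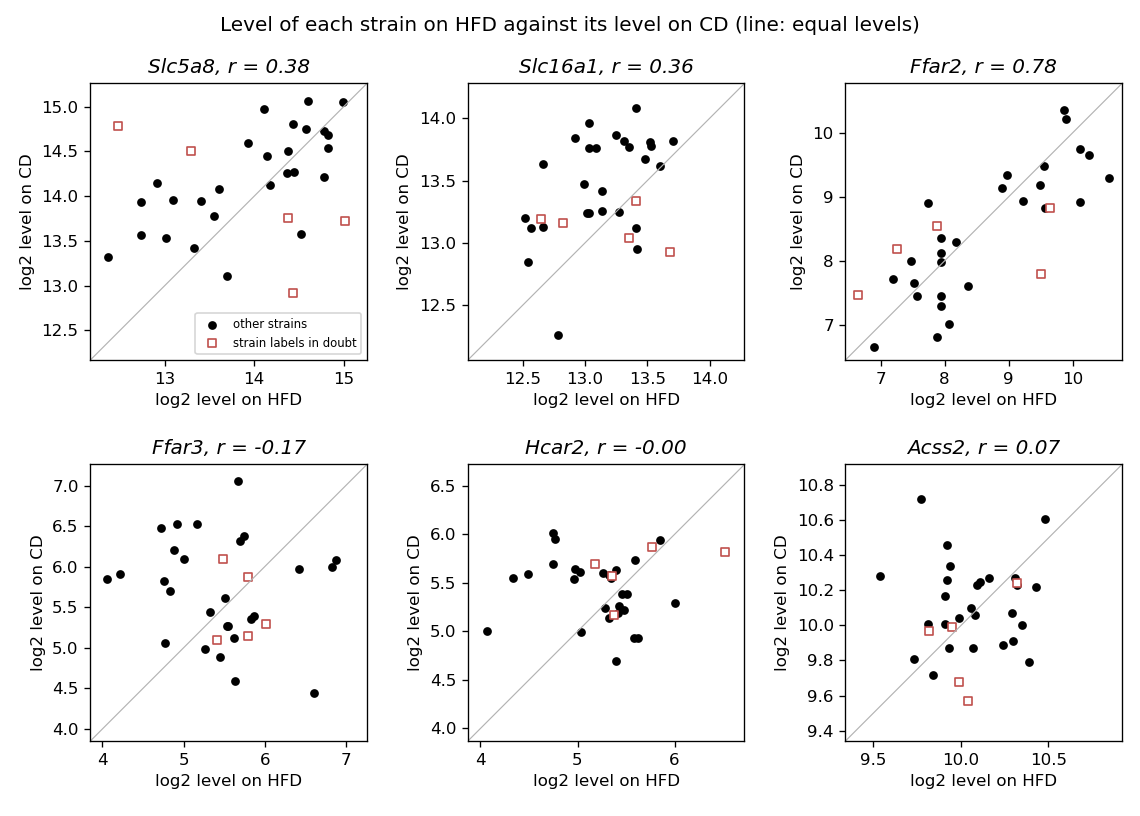
Log2 level of each of 32 strains on HFD (x axis) and on CD (y axis) for the 6 genes, with the line of equal levels. Red squares are the 5 strains whose labels are in doubt. Ffar2 strains follow the line (r = 0.78), and the squares of DBA/2J, BXD89 and BXD90 lie farthest from it for Slc5a8 (changes of -2.30, 1.5 and 1.29).

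The 6 genes did not move together. Among 45 relations, 15 pairs on HFD, on CD and in their change, r ranged from -0.43 to 0.36 with a median of 0.00, and 0 passed, with 3 at an unadjusted p under 0.05 (smallest adjusted p = 0.403, permutation test). The change of Slc5a8 and that of Ffar2 had an r of -0.43 and a rho of -0.33 (permutation p = 0.013 and 0.0698, adjusted 0.403 and 0.374), but r was -0.20 without the 2 strains farthest from the median. On HFD, Hcar2 and Acss2 had an r of -0.36 (adjusted p = 0.403), and on CD, Slc5a8 and Acss2 one of 0.36 (0.403).

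Each gene was then set against all others by the mean of its r on HFD and its r on CD, and the 5 most like genes were listed. These are descriptions chosen for their likeness, over 32 strains and with no test. The genes most like Slc16a1 were the aldo-keto reductase Akr1c13 (0.66), the brush border gene Anks4b (0.65), Akr1c12 (0.65), the surface keratin Krt20 (0.64) and the monoamine oxidase Maoa (0.64). Akr1c12 and Akr1c13 resemble each other in sequence, and cross-hybridisation between their probes is possible. The genes most like Slc5a8 were the leukotriene A4 hydrolase Lta4h (0.63), Clca4a (0.62), the MAX partner Mxd1 (0.57), the transcription factor Klf4 of differentiated epithelium (0.56) and the scaffold Iqgap2 (0.56). Of these, Lta4h lies on chromosome 10 with Slc5a8. The KLF-type box of the Slc5a8 promoter printed above is a sequence match and says nothing of Klf4 in these arrays.

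The likest genes of Ffar2 were the globin Hba-x (0.55), the fucosyltransferase Fut2 (0.52), Wfdc18 (0.50), the zinc finger gene Zfp566 (0.49) and Rbbp9 (0.48), of which Fut2 and Zfp566 lie on chromosome 7 with Ffar2. Those of Acss2 were Pla2g10 (0.54), Pdcl (0.52), Wdr45b (0.51), Pafah1b3 (0.51) and Nudt9 (0.50). For Ffar3 they were Krtap5-5 (0.68), Mup9 (0.61), Defb10 (0.60), Gsg1 (0.59) and Ankrd2 (0.57), and for Hcar2 the olfactory receptor gene Olfr1418 (0.58), Gm10142 (0.54), Gm5114 (0.53), Mfsd10 (0.53) and Pabpc6 (0.53). A hair keratin-associated gene, a urinary protein gene and an olfactory receptor gene in these last lists are genes of other tissues.

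Genes near Ffar2 were frequent among those that varied with it in either direction. Of the 50 genes with the largest absolute mean r, 15 lay on chromosome 7 and 9 within 10 Mb of the start of Ffar2 (positions from RefSeq, GRCm38.p6), while 9.34% of all genes lie on that chromosome and 1.74% in that window. For Slc5a8 4 of 50 lay within 10 Mb, a window with 1.19% of all genes, and for Slc16a1 2, with 1.16%. These 2 genes thus also had neighbours above that share. For Acss2, Hcar2 and Ffar3 it was 0, with 1.47%, 1.08% and 1.74% of all genes in the window. The difference between these counts was not tested, and in inbred lines of a cross neighbouring genes share alleles. Named after their values were seen, Scgb2b20 (-0.63) at 2.5 Mb and the hydrolase gene Nudt19 (-0.61) at 4.7 Mb ran opposite to Ffar2. Zfp566 and Wdr62 ran with it (0.49 and 0.46), and Tmem147 and Capns1 against it (-0.46 and -0.45), all within 0.7 Mb. Nudt19 itself kept its strain order, with an r between diets of 0.74. That r was 0.48 for Scgb2b20, 0.46 for Tmem147, 0.43 for Zfp566, 0.33 for Capns1 and 0.15 for Wdr62. Scgb2b20 averaged 5.02 on HFD and 5.10 on CD, and Wdr62 4.43 and 4.30, where 95% of the background genes were under 6.46. The levels of these 2 genes cannot be told apart from background, whereas Nudt19 averaged 13.75 on HFD and 13.82 on CD. The r between diets of Scgb2b20 (0.48) was nevertheless above 0.41, the value that 95% of background genes were under. Most neighbours had little relation: over 208 genes within 5 Mb the median absolute r was 0.11, the same as for 382 genes at 10 to 20 Mb. Whether probes over strain differences in sequence are still part of the deposited values was not stated, and their part in these strain patterns was not tested.

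**Figure D4:**
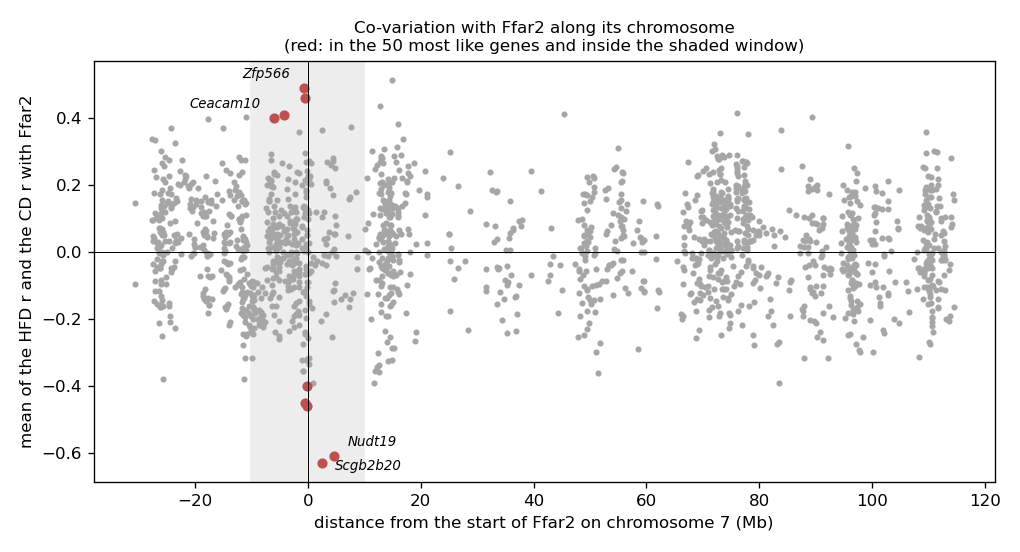
Mean of the HFD r and the CD r with Ffar2 (y axis, 32 strains) for the genes of chromosome 7 by distance from the start of Ffar2 in Mb (x axis). Red points are the 9 genes that are among the 50 most like and within 10 Mb (shaded), on both sides of 0. The 2 lowest are Scgb2b20 (-0.63) and Nudt19 (-0.61).

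The 6 genes were also set against the mean of 13 marker lists and of the background genes, 252 relations in all, of which 6 passed (23 at an unadjusted p under 0.05). On CD Slc16a1 was lower in strains with more signal of smooth muscle genes, with an r of -0.63 and a rho of -0.74 (permutation p = 8e-05 and 2e-05, adjusted 0.00672 and 0.00504), and -0.62 without the 2 strains farthest from the median. All 8 markers of the list had a negative r, from -0.69 for Tagln to -0.04 for Lmod1. On HFD r with the same list was -0.26 (adjusted p = 0.723), and for the changes -0.17 (0.918). Slc16a1 on CD also ran against 7 macrophage markers, with an r of -0.61 and a rho of -0.51 (adjusted p = 0.0176 and 0.117). With the same list r was 0.09 on HFD (adjusted p = 0.952), and for the changes r was -0.48 and rho -0.56 (permutation p = 0.00538 and 0.00091, adjusted 0.169 and 0.0573), with an r of -0.51 without the 2 strains farthest from the median. The difference between diets was not tested.

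Colonocyte markers split in how they ran with Slc16a1. On HFD 6 of 9 had a positive r and on CD 6 of 9, with Krt20 at 0.59 on HFD and 0.70 on CD and the water channel Aqp8 at 0.67 on HFD and 0.62 on CD. Ceacam20 ran the other way, at -0.40 on HFD and -0.46 on CD. The mean of the list had an r of 0.42 with Slc16a1 on HFD (adjusted p = 0.241) and 0.20 on CD (0.817). For the changes between diets, r with Slc16a1 ranged from -0.36 (Guca2b) to 0.70 (Krt20) over the 9 markers, with a median of 0.08. The change of the list had an r of 0.28 with that of Slc16a1 (adjusted p = 0.663, permutation test). It was 0.12 without the 2 strains farthest from the median. The colonocyte list itself was lower on HFD in 26 of 32 strains by 0.19 on average, and 0 of its 9 genes passed in limma, with 2 at an unadjusted p below 0.05, while Car4 fell with strain as a block (adjusted p = 0.0207).

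Other lists moved between the diets as Slc16a1 did or against it. The fibroblast list was higher on HFD in 29 of 32 strains (mean 0.28), the list of dividing cells in 25 (0.42) and the smooth muscle list in 22 (0.15), while the goblet cell list was lower in 24 (-0.13). The small intestine list was higher in 24 (0.54, SD 1.92 over strains), and the macrophage list was lower in 22 (-0.05). Of the 10 small intestine genes 1 passed, Fabp6 (2.32, adjusted p = 0.00641 in limma). The 8 goblet cell genes split, with a median change of 0.024. Spdef (-0.915) and Atoh1 (-0.407) had the largest falls, and Clca1 (-0.053) and Muc2 (-0.004) hardly moved. Fcgbp (0.154), Agr2 (0.079), Tff3 (0.065) and Zg16 (0.053) had positive differences. Of the 5 dividing cell genes Mki67, Top2a and Plk1 rose (0.43, 0.55 and 0.48, adjusted p = 0.0311, 0.00571 and 0.00736 in limma). Cdk1 (0.42, 0.0964) and Birc5 (0.24, 0.259) did not pass. Across strains the change of Slc16a1 had an r of -0.09 with that of the fibroblast list, -0.08 with that of dividing cells, -0.17 with that of smooth muscle and -0.01 with that of goblet cells. With that of the small intestine list r was -0.15, and the macrophage value is given above. Their part in the difference of Slc16a1 was not tested.

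Ffar2, a receptor of enteroendocrine cells, had no relation past the threshold with any marker list. With the mean of 8 enteroendocrine markers it had an r of 0.43 on HFD (adjusted p = 0.241), 0.09 on CD (0.952) and 0.45 between changes (0.219). Relations of similar size were seen with the goblet cell list (-0.44) and the dividing cell list (-0.41) on CD and with the macrophage list on HFD (-0.37). In the changes all 8 enteroendocrine markers had a positive r, from 0.11 to 0.57, the highest for the proglucagon gene Gcg and 0.51 for the hormone gene Pyy. Without the 2 strains farthest from the median, the r of 0.45 with the list was 0.36. The largest rises of Gcg (2.56) and Pyy (2.51) were both in BXD87, whose label is in doubt. Within a diet r ranged from -0.26 to 0.39 on CD, with Gcg at 0.00 and Pyy at -0.14. On HFD it ranged from -0.16 to 0.36, with Gcg at 0.28 and Pyy at 0.36. Pyy itself rose on HFD by 0.69 (adjusted p = 0.00207), while the granule gene Chga (-0.60, 0.00692) and the serotonin enzyme Tph1 (-0.77, 0.00128) fell, so the list held changes in both directions. With neutrophil markers, a further known site of Ffar2, r was -0.24 on HFD and 0.02 on CD.

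Ffar3 and Hcar2 ran with the background genes. Ffar3 had an r of 0.67 and a rho of 0.62 with the mean of the 1426 background genes on HFD (adjusted p = 0.00252 and 0.021), and 0.67 and 0.65 in the change (0.00252 and 0.0113). On CD r was 0.43 (adjusted p = 0.237). Hcar2 had an r of 0.55 on CD (adjusted p = 0.0441, and 0.0796 for rho) and 0.33 on HFD (0.575). Acss2 on HFD ran against 10 small intestine markers, with an r of -0.50 (adjusted p = 0.0441), yet rho was -0.18 and r was -0.11 without the 2 strains farthest from the median, so that relation rests on those strains. Slc5a8 had no relation past the threshold with any list. The heat map of marker relations gives all values.

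**Figure D5:**
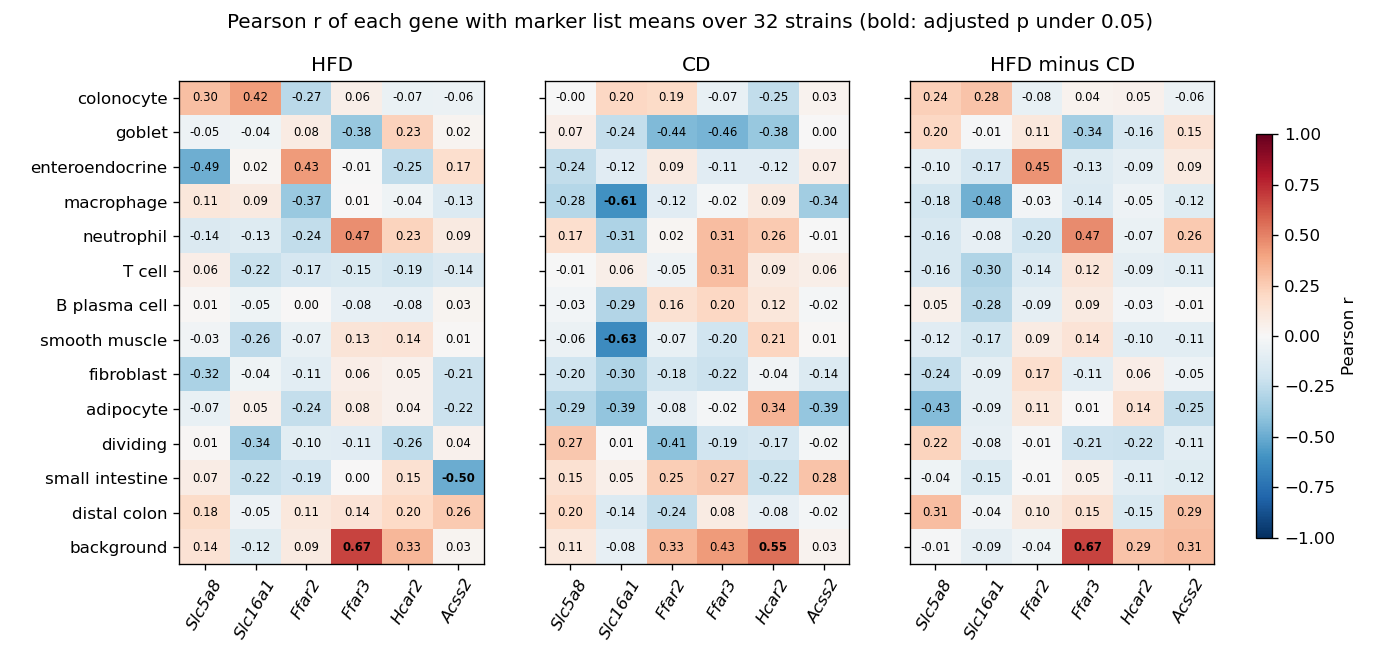
Pearson r of the 6 genes (columns) with the mean of each of 13 marker lists and the background genes (rows) over 32 strains, on HFD, on CD and for the difference of HFD minus CD. Bold values passed an adjusted p of 0.05, as Slc16a1 with smooth muscle on CD (-0.63) and Ffar3 with the background on HFD (0.67).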

How the data were processed

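The authors summarised Clariom S arrays per probeset with Affymetrix Power Tools (GC correction, signal space transformation and RMA) and deposited log2 values; their methods say that probes over sequence differing between BXD strains were ignored, and that probesets of the same transcript were reduced to their median. Whether both apply to the deposited log2 values, and the genome build, are not given in the sources used here. Detection calls were not used, and the number of arrays limits the precision. Of 22199 probesets, 19570 had 1 gene symbol and 2629 none, giving 19503 genes (median over probesets for 55 of them). Array medians ranged from 6.58 to 6.77 on HFD and from 6.54 to 6.74 on CD.

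Diet was tested in limma 3.58.1 (R 4.3.3) with lmFit and eBayes over all genes, HFD minus CD, with Benjamini-Hochberg adjustment and a threshold of 0.05. Strain was a replicate block in an alternative. The arrays labelled with 1 inbred strain are a pair by the study's design: their deviations from the diet means correlated by over 0.1 in 22 of 32 pairs (median 0.21, against -0.01 between strains). Relations across strains were tested by two-sided permutation with 100000 resamples (numpy 2.4.6), adjusted over 6, 45 or 252 relations. Both procedures were tested on simulated data. The arrays simulated for limma had no strain effect, so they could not check how the strain block handles paired arrays. Named genes were the 6 genes, list genes that passed either fit or had 1 of the 3 smallest p values of their list, the 5 most like genes of each, and markers of lists that moved. Slc16a3, Slc26a3, Hcar1, Ffar1, Defa24, single enteroendocrine markers and the chromosome 7 neighbours were named after their values were seen, as was the relation of Slc16a1 with Bsg. The 6 genes and all lists were chosen with earlier results of these data known. Genes of the lists without a named probeset were not analysed here. Alternatives covered scaling, filters, probeset means, variance moderation and leaving out arrays or strains.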

Additional observations from a re-analysis of the deposited data

How the results depend on the processing

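The fall of Slc16a1 passed once the replicate block of strain was fitted (-0.282, adjusted p = 0.0336) and in that fit without the strains with labels in doubt (-0.344, 0.0058), and in no other alternative but leaving out BXD90. Of 19503 genes, 426 passed with diet alone, 687 with the replicate block and 1358 with the block and without strains in doubt. Of the 54 listed pathway genes, 4, 6 and 11 passed, in the same order. Without the arrays that stand apart 1 of them passed, Bsg. The replicate block changed the call of no other of the 6 genes. The Acss2 difference turned to 0.027 without the arrays rich in Defa24 (adjusted p = 0.911). The filter on the upper 60% of genes left out Ffar3 and Hcar2, which have no value there. Centring each array moved the median change of all genes to -0.009.

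When each strain was left out in turn, the difference ranged from -0.279 to -0.156 for Slc5a8, -0.316 to -0.26 for Slc16a1, 0.102 to 0.195 for Ffar2, -0.281 to -0.153 for Ffar3, -0.209 to -0.146 for Hcar2 and -0.048 to 0.002 for Acss2. The number of genes passing ranged from 283 (without BXD34) to 572, and that of pathway genes from 1 to 5, with 2 or fewer without BXD32, BXD34, BXD43, BXD45, BXD51, BXD55, BXD64 or BXD84. Bsg passed in 32 of 32 such fits, which had diet alone and no strain block. Ffar4 passed in 26, and not without BXD34, BXD43, BXD45, BXD51, BXD55 or BXD84 (highest adjusted p = 0.0638). Scd1 passed in 21, and not without these or BXD12, BXD32, BXD64, BXD79, BXD81 or BXD87, apart from BXD84 (highest 0.0657). Me1 passed in 13 (highest 0.0798). In the 30 BXD strains Me1 no longer passed (adjusted p = 0.0623), nor when the arrays with high Defa24 were left out (0.0898).

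Repeatability between diets passed for Slc5a8 in the 30 BXD strains (0.497), without strains in doubt (0.703) and without the 2 strains farthest from the median (0.474), and for Slc16a1 without strains in doubt (0.481). It turned to -0.00357 for Acss2 without strains in doubt and, for Hcar2 (-0.0042 in all strains), to 0.0349 without strains with an array rich in Defa24 or that stands apart and to 0.0609 without the 2 farthest strains. Ffar2 passed in all of these. No pair of the 6 genes passed in any alternative. The causes were not tested.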
